A study of Mus musculus with 12 samples.

Results

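The comparison described here is the MEK inhibitor PD-901 (PD0325901) given alone against vehicle, in bone marrow of mice that carry a gain-of-function Ptpn11 allele. It rests on 6 of the 12 RNA sequencing libraries of the series, 3 from mice given PD-901 and 3 from mice given vehicle, chosen by the agent named in the labels, and on all 17475 of 56350 genes with enough counts to be tested. The other 6 mice, which received 5-azacitidine alone or both agents, entered the fit as groups of their own. The study concerns how MEK inhibition acts when it is joined to 5-azacitidine in this model of juvenile myelomonocytic leukaemia.

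Every mouse, the vehicle group included, carried Shp2E76K/+ and LysM-Cre+ on a C57BL/6 background, was 12 to 14 weeks old and was male or female. Shp2 is the phosphatase encoded by Ptpn11, and E76K keeps it active. LysM-Cre is expressed from the Lyz2 locus, so the allele was switched on in myeloid cells and in other marrow cells it is expected to stay off. PD-901 was given by oral gavage at 5 mg/kg on 5 days a week for 4 weeks, 20 doses in all. No source used here gives the interval between the last dose and the harvest.

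Shp2 passes signals from cytokine and growth factor receptors to Ras. Ras activates RAF kinases, RAF activates MEK, and MEK activates ERK. PD-901 inhibits MEK without competing for ATP. ERK switches on a short list of genes that includes its own brakes, the Dusp phosphatases and the Sprouty and Spred proteins, and their transcripts are widely read as a gauge of pathway output.

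Library depth was 16335382 to 27148190 counts, and mitochondrial transcripts took 1.01 to 1.29% of them. Some libraries stood apart from the rest of their group. Lyz2, which encodes lysozyme M, was at 172, 147 and 3228 CPM (read counts adjusted for library size) in vehicle mice 1 to 3. It was at 4182, 699.6 and 2566 CPM in PD-901 mice 1 to 3, so vehicle mice 1 and 2 were the lowest of the 6. Xist, transcribed from the inactive X of female cells, was at 132, 724 and 162 CPM with vehicle and at 1.11, 344 and 151 CPM with PD-901. The sum of 4 Y-linked genes was 153, 0.148 and 126 CPM with vehicle and 212, 56.6 and 148 CPM with PD-901. Vehicle mice 1 and 3 and PD-901 mice 2 and 3, which make 4 of the 6 libraries, therefore held both female and male transcripts, although the labels give each library as 1 mouse. The part of these differences in the results below was not tested beyond the alternatives given with them.

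**Figure D1:**
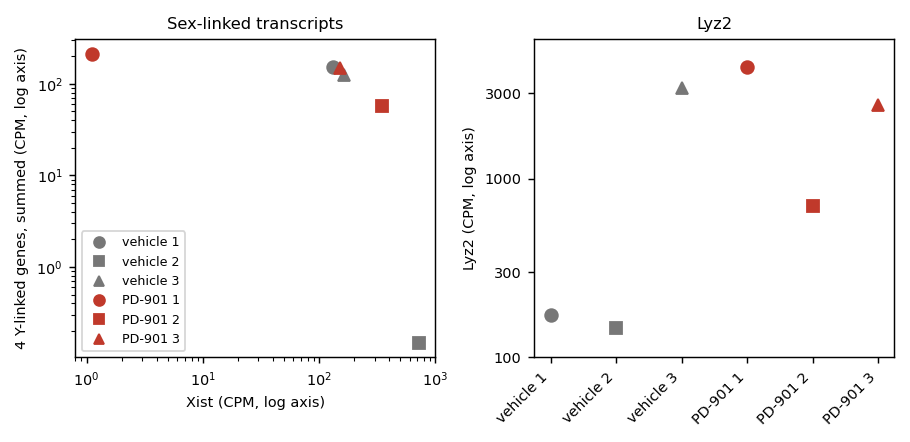
Xist against the sum of 4 Y-linked genes (left, CPM, both axes log) and Lyz2 (right, CPM, log axis) in the 3 vehicle and 3 PD-901 libraries, 1 point a library. Only vehicle 2 and PD-901 1 lie at the edges of the left plot, and the other 4 libraries hold both kinds of transcript. In the right plot vehicle 1 and 2 lie below all others.

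No gene passed the threshold. With edgeR's quasi-likelihood test and Benjamini-Hochberg adjustment over 17475 genes, 0 were higher (0%) and 0 lower (0%) at an adjusted p under 0.05. At an unadjusted p under 0.05 there were 473 higher (2.71%) and 380 lower (2.17%), 4.88% in all. Leaving out 1 library moved these shares. Without vehicle mouse 1, 2 and 3 in turn, 1.79, 2.86 and 4.44% were higher and 2.06, 1.73 and 2.04% lower. Without PD-901 mouse 1, 2 and 3 in turn, 1.89, 1.22 and 3.77% were higher and 1.59, 1.13 and 2.78% lower. List counts below with a library left out are to be read beside these shares. DESeq2 called 4 genes higher (0.0362%) and 5 lower (0.0453%) of 11035, and limma-voom called 1 higher (0.00572%) and 0 lower. Across all genes tested the median log2 change was 0.01, 51.6% of changes lay above 0, and the median standard error of a log2 change was 0.28. The 3 PD-901 libraries all lay above the 3 vehicle libraries for 1193 genes (6.83%) and all below for 1037 (5.93%). The genes and lists that follow are therefore described by their values and intervals. Unless an adjusted p is printed, that of edgeR was 0.96 or more, and every interval is the 95% interval of the log2 change, PD-901 minus vehicle, with 3 mice a side.

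Among the transcripts that report ERK output, Dusp6, Spry2 and Myc stood close to their vehicle level, while most of the list lay below it with intervals that include 0. Dusp6, the cytoplasmic phosphatase that switches off ERK (mm10 chr10:99263231-99267489), was at 209, 173 and 218 CPM with vehicle and at 225, 179 and 211 CPM with PD-901. The groups overlapped throughout, with a log2 change of 0.04 (interval -0.52 to 0.59). Spry2 and Spry4 encode Sprouty proteins, which restrain signalling upstream of RAF. Spry2 differed by 0.03 (-0.36 to 0.42) and Spry4 by -0.41 (-2.05 to 1.23), the latter at 2.47 to 7.76 CPM in the 6 libraries. Spred1 and Spred2, which bring neurofibromin to Ras, differed by -0.28 (-0.68 to 0.13) and -0.27 (-0.64 to 0.10). Etv5, an ETS transcription factor induced through ERK, was at 18.1, 23.8 and 36.1 CPM with vehicle and at 12.8, 17.8 and 23.4 CPM with PD-901, a change of -0.53 (-1.27 to 0.20). Myc differed by 0.01 (-0.31 to 0.33). Ccnd1, which encodes cyclin D1, differed by -0.28 (-1.29 to 0.73).

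Dusp4 and Dusp7, a nuclear and a cytoplasmic phosphatase of the MAP kinases, had the largest downward shifts among the brakes. Dusp7 was at 36.4, 50.3 and 88.6 CPM with vehicle and at 35.8, 32 and 42.5 CPM with PD-901 (-0.67, interval -1.19 to -0.14), and the groups overlapped because vehicle mouse 1 was low. Dusp4 was at 0.838 to 3.19 CPM with vehicle and 0.635 to 1.57 CPM with PD-901 (-1.18, interval -2.63 to 0.27). Ier3, an early response gene that limits apoptosis, went the other way. It was at 46.3, 37.7 and 36.9 CPM with vehicle and at 103, 54.8 and 54.4 CPM with PD-901 (0.81, interval 0.29 to 1.34), with no overlap and PD-901 mouse 1 far above the others. Over the whole ERK output list, 4 of 19 members lay above 0 and the median log2 change was -0.28, against 51.6% and 0.01 over all genes. Of all genes, 2.71% were higher and 2.17% lower at an unadjusted p under 0.05. Of the 19, 1 was higher (Ier3) and 1 lower (Dusp7) at that level. Both the median and these counts moved with single libraries. Without PD-901 mouse 3 the median was -0.46 and 4 members were lower, where 2.78% of all genes were. Without vehicle mouse 2 there were 2 lower, and without vehicle mouse 3 or PD-901 mouse 2 there were 0. Without PD-901 mouse 1 the median was -0.18 and 0 members were higher.

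**Figure D2:**
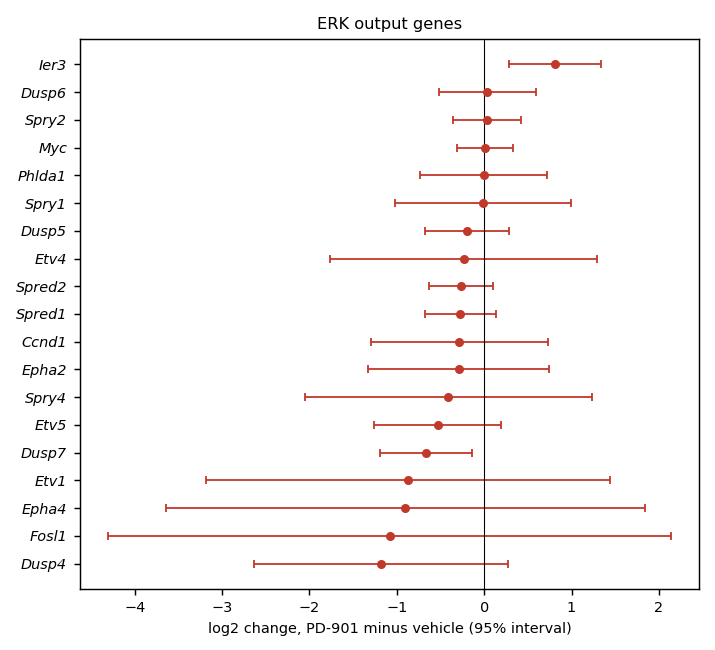
Log2 change, PD-901 minus vehicle, of the 19 genes of the ERK output list (points) with the 95% interval (bars). All intervals except those of Ier3 and Dusp7 include 0, and Dusp6 lies at 0.04.

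For Dusp6 and Hsph1 the estimated PD-901 effect was lower when 5-azacitidine was given too, but the difference did not pass the threshold. Dusp6 was at 21.2, 27.9 and 45.6 CPM in the combination libraries and at 116, 233 and 164 CPM with 5-azacitidine alone. For this gene the difference between the PD-901 effect with and without 5-azacitidine was -2.47 on the log2 scale with a standard error of 0.37. Its adjusted p by edgeR was 0.06. Hsph1, a chaperone gene described below, had the same adjusted p, with a difference of -1.75 and a standard error of 0.26. It was at 135, 166 and 115 CPM in the combination libraries and at 190, 189 and 179 CPM with 5-azacitidine alone. Of all 17475 genes, 0 passed that test of the difference with edgeR (0%). DESeq2 called 285 of 14083 (2.02%), and 48 of the 290 genes named here were among them, while limma-voom called 4 genes (0.0229%), 2 of them named here. Many of the 290 were picked for a low p in PD-901 against vehicle, a difference that this test contains, so their count is raised by the choice. Hsph1 had the lowest p of all genes in that comparison, so the choice also favours a large difference for it here. The combination libraries hold almost no Xist, 1.80 to 7.59 CPM, and its part in these differences was not tested.

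The components of the cascade differed little from vehicle, the largest differences being those of Gab1, Sos1 and Rasa2. Ptpn11 itself was at 140, 150 and 135 CPM with vehicle and at 132, 120 and 139 CPM with PD-901 (-0.12, interval -0.38 to 0.15), and gene counts do not separate the mutant from the normal allele. Map2k1 and Map2k2 encode MEK1 and MEK2, the targets of the drug. Map2k1 was at 163, 138 and 137 CPM with vehicle and at 134, 113 and 116 CPM with PD-901 (-0.27, interval -0.56 to 0.01), with no overlap by a narrow margin. Map2k2 differed by 0.20 (-0.06 to 0.46). Sos1, the exchange factor that loads Ras with GTP, was at 36.2, 36.8 and 34.2 CPM with vehicle and at 26.7, 24 and 31.2 CPM with PD-901 (-0.39, interval -0.69 to -0.08), with no overlap. Gab1, a docking protein for Shp2, differed by 0.68 (0.02 to 1.34). Of the 27 Ras pathway components 6 lay above 0, with a median of -0.09. At an unadjusted p under 0.05, 1 was higher and 1 lower, where 2.71% of all genes were higher and 2.17% lower. Of these 27, 4 had no overlap downward (Sos1, Map2k1, Rps6ka3 and Lztr1), where 5.93% of all genes did. The higher count was 0 without vehicle mouse 1 or 3, PD-901 mouse 2 or combination mouse 1. There, 1.79, 4.44, 1.22 and 2.56% of all genes were higher. The lower count was 0 without PD-901 mouse 2 and 2 without vehicle mouse 3 or PD-901 mouse 1. There, 1.13, 2.04 and 1.59% of all genes were lower.

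Cytokine signalling downstream of the GM-CSF receptor gave a mixed picture. Socs3, a feedback inhibitor of JAK kinases, was at 26, 21 and 24.7 CPM with vehicle and at 49.9, 43.1 and 46.5 CPM with PD-901 (0.96, interval 0.22 to 1.70). All PD-901 libraries lay well above all vehicle libraries. Cish, a feedback gene of STAT5, was at 3.74, 5.42 and 4.34 CPM with vehicle and at 3.41, 2.2 and 1.71 CPM with PD-901 (-0.88, interval -1.57 to -0.19), again with no overlap. Csf2ra and Csf2rb, the receptor chains, each differed by -0.18, with intervals of -0.56 to 0.19 and -0.58 to 0.21. The list of 14 had 6 members above 0 and a median of -0.14. At an unadjusted p under 0.05, 1 was higher and 1 lower, where 2.71% of all genes were higher and 2.17% lower. Of the 14, 2 had no overlap upward and 2 downward, where 6.83 and 5.93% of all genes did. The PI3K, mTOR and FOXO list had a median of -0.06. It had 0 of 17 members at an unadjusted p under 0.05 in either direction, where 4.88% of all genes were. Among 12 growth factor receptor kinases 2 lay above 0 (median -0.33), and Flt3, a receptor of early progenitors and dendritic cells, differed by -0.52 (-0.99 to -0.05).

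Most immediate early genes, the first transcripts that follow a stimulus, had a higher mean with PD-901, most of all through PD-901 mouse 1. The mean deviation of the list from the vehicle mean (log2 CPM) was -0.10, -0.18 and 0.28 in vehicle mice 1 to 3. It was 0.85, 0.18 and 0.17 in PD-901 mice 1 to 3, so PD-901 mice 2 and 3 lay below vehicle mouse 3. Egr1, a zinc finger factor commonly induced through ERK, was at 53.5, 42.8 and 105 CPM with vehicle and at 283, 124 and 149 CPM with PD-901 (1.46, interval 0.53 to 2.40). The groups did not overlap. Fos was at 427, 399 and 497 CPM with vehicle and at 1084, 519.7 and 505 CPM with PD-901 (0.67, interval -0.21 to 1.56), so PD-901 mice 2 and 3 lay just above the highest vehicle mouse. Zfp36, which encodes the mRNA-destabilizing protein tristetraprolin, was at 719.8, 629 and 649 CPM with vehicle and at 1548, 888 and 834 CPM with PD-901 (0.71, interval 0.11 to 1.32). Junb and Ier5 were likewise highest in PD-901 mouse 1, with changes of 0.69 and 0.78. Of 17 tested members 13 lay above 0, with a median of 0.45. At an unadjusted p under 0.05, 4 were higher and 0 lower, where 2.71% of all genes were higher. Of the 17, 6 had no overlap upward, where 6.83% of all genes did. Without PD-901 mouse 1 the median was 0.20 and 1 member was higher and 1 lower at that level, and without vehicle mouse 2 there were 2 higher. With vehicle mice 1 and 2 both left out there were 0 higher. Tnf, an inflammatory cytokine that is also an early response gene, was also highest in PD-901 mouse 1, at 29.6, 29.2 and 30.2 CPM with vehicle and at 65.3, 36.9 and 32.1 CPM with PD-901 (0.59, interval 0.09 to 1.10).

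Heat shock chaperones, which fold new and damaged proteins, held the gene nearest to the threshold. Hsph1 (mm10 chr5:149614287-149636376), the HSP110 that resets HSP70, was at 50.9, 67.3 and 75.6 CPM with vehicle and at 121, 183 and 183 CPM with PD-901. The groups lay far apart, with a log2 change of 1.33 ± 0.19 (SE; interval 0.93 to 1.73), a 2.51-fold difference and an adjusted p of 0.0577 by edgeR. DESeq2 gave an adjusted p of 3.53e-07 and limma-voom 0.0407. The edgeR value passed the threshold without PD-901 mouse 1 (0.00586), without combination mouse 2 (0.0181) and without combination mouse 3 (0.0361). It also passed without a filter on low counts (9.22e-12). It was 0.414 to 0.493 without vehicle mouse 1 or 2 or without PD-901 mouse 2 or 3. With a Lyz2 covariate it was 0.182, and with a Y-linked covariate 0.282.

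Hsp90aa1, the inducible HSP90, was at 503, 632 and 683 CPM with vehicle and at 877, 1153 and 862 CPM with PD-901 (0.67, interval 0.32 to 1.02). Hspa8, the constitutive HSP70, was at 1532, 1651 and 2049 CPM with vehicle and at 2055, 2841 and 2364 CPM with PD-901 (0.47, interval 0.10 to 0.85), where the highest vehicle and the lowest PD-901 library nearly met. The cochaperones Dnaja1 and Stip1 differed by 0.53 (0.20 to 0.86) and 0.48 (0.19 to 0.77). Hspe1, the mitochondrial HSP10, was at 44, 45.7 and 55.6 CPM with vehicle and at 75.9, 89.5 and 62.9 CPM with PD-901 (0.65, interval 0.27 to 1.03). None of these groups overlapped. The stress-induced HSP70 genes Hspa1a and Hspa1b, near-identical copies whose reads may be split between them, were at 4.45 to 14 and 5.17 to 22.6 CPM and differed by 0.52 (-0.73 to 1.77) and 0.93 (-0.40 to 2.27).

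Of 23 tested members of the list, 18 lay above 0 with a median of 0.47. At an unadjusted p under 0.05, 11 were higher and 0 lower, where 2.71% of all genes were higher, and 14 had no overlap upward, where 6.83% of all genes did. Hsf1, the master regulator of the response, differed by 0.07 (-0.21 to 0.36), and Cirbp, a cold-induced RNA-binding protein, by -0.10 (-0.44 to 0.24). Within the vehicle group the list was lowest in mouse 1 and highest in mouse 3. With vehicle mice 1 and 2 left out the median was 0.28, and 1 member was higher at that level, with a single vehicle library left.

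The promoters of Hsph1 and Hspe1 are shown because heat shock factor binds inverted repeats of a short unit that can be searched for. The motif searched was GAANNTTC or TTCNNGAA, each its own reverse complement, with overlapping matches counted. Both sequences are RefSeq windows of 300 bases on GRCm38.p6 (the mm10 build) from 250 bases before the start to 50 after it, written 5′ to 3′ with the matches in capitals. Hsph1 is on the minus strand at chr5:149636287-149636586 and Hspe1 on the plus strand at chr1:55087898-55088197.
Hsph1: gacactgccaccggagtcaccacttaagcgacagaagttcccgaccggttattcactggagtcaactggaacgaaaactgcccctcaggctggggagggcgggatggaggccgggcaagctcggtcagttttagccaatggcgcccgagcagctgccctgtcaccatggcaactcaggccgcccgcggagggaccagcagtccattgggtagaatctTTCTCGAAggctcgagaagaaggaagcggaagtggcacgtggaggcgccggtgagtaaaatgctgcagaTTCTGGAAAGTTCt
Hspe1: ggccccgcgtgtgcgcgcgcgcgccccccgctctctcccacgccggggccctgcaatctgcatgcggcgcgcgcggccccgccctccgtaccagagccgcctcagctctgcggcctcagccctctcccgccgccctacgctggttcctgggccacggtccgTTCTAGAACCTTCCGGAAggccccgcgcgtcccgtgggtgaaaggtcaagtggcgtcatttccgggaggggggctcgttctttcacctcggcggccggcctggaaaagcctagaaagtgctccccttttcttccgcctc
Each window held 3 matches. Of the 19 list members with a window in the RefSeq table, 11 held at least 1 match, against 17% of 27025 genes. A match is a description of the letters and not a measured site, and these counts do not depend on any PD-901 value. The CArG box is the serum response element to which SRF binds at immediate early genes. It was found in 2 of 16 members' windows, against 1.81% of genes. They were those of Zfp36 and of Egr2, whose transcript is taken as not measured here.

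Genes of the unfolded protein response differed less. Hspa5, the endoplasmic reticulum HSP70, was at 665, 629 and 856 CPM with vehicle and at 960.3, 977 and 956 CPM with PD-901 (0.43, interval 0.06 to 0.79). Asns, the asparagine synthetase induced by amino acid shortage, differed by 0.61 (0.12 to 1.09). The list had 13 of 15 members above 0, a median of 0.27, and 2 higher and 0 lower at an unadjusted p under 0.05, where 2.71% of all genes were higher. The count of 2 was 0 without vehicle mouse 1 or PD-901 mouse 2, 1 without vehicle mouse 2 and 4 without vehicle mouse 3. With vehicle mice 1 and 2 both left out the median was 0.04 with 0 higher.

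Erythroid transcripts lay above vehicle in all 3 PD-901 mice. Hba-a1, an adult alpha globin, was at 541, 549 and 321 CPM with vehicle and at 1781, 1489 and 884 CPM with PD-901 (1.56, interval 0.65 to 2.47). Hbb-bs, an adult beta globin, was at 262, 268 and 169.6 CPM with vehicle and at 826, 807 and 463 CPM with PD-901 (1.58, interval 0.68 to 2.49). Hba-a2 and Hbb-bt, near-identical copies of these genes, differed by 2.03 and 1.28, and the authors' counting may have split reads within each pair. Beyond the globins, Alas2, the first enzyme of heme synthesis in erythroid cells, was at 43.2, 37.4 and 30.6 CPM with vehicle and at 78.5, 76.6 and 67.6 CPM with PD-901 (1.00, interval 0.22 to 1.79). Klf1, the erythroid master regulator, differed by 0.78 (0.20 to 1.35). Gata1 differed by 0.50 (-0.04 to 1.04) and Tfrc, the transferrin receptor, by 0.38 (-0.003 to 0.77). None of these groups overlapped.

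All 21 tested members of the erythroid list lay above 0, with a median of 0.65. At an unadjusted p under 0.05, 10 were higher and 0 lower, where 2.71% of all genes were higher. Of the 21, 14 had no overlap upward, where 6.83% of all genes did. The summed level was 3371, 4000 and 2429 CPM with vehicle and 6417, 6400 and 4827 CPM with PD-901, 1.80-fold higher in the mean. Vehicle mouse 3, which had the most Lyz2 of its group, had the lowest erythroid sum. Without vehicle mouse 3 the median was 0.44 and 5 members were higher at that level, where 4.44% of all genes were. Without vehicle mouse 1 there were 6, where 1.79% were. In bulk marrow, more cells of a type and more RNA per cell cannot be told apart, here and for each cell type below.

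**Figure D3:**
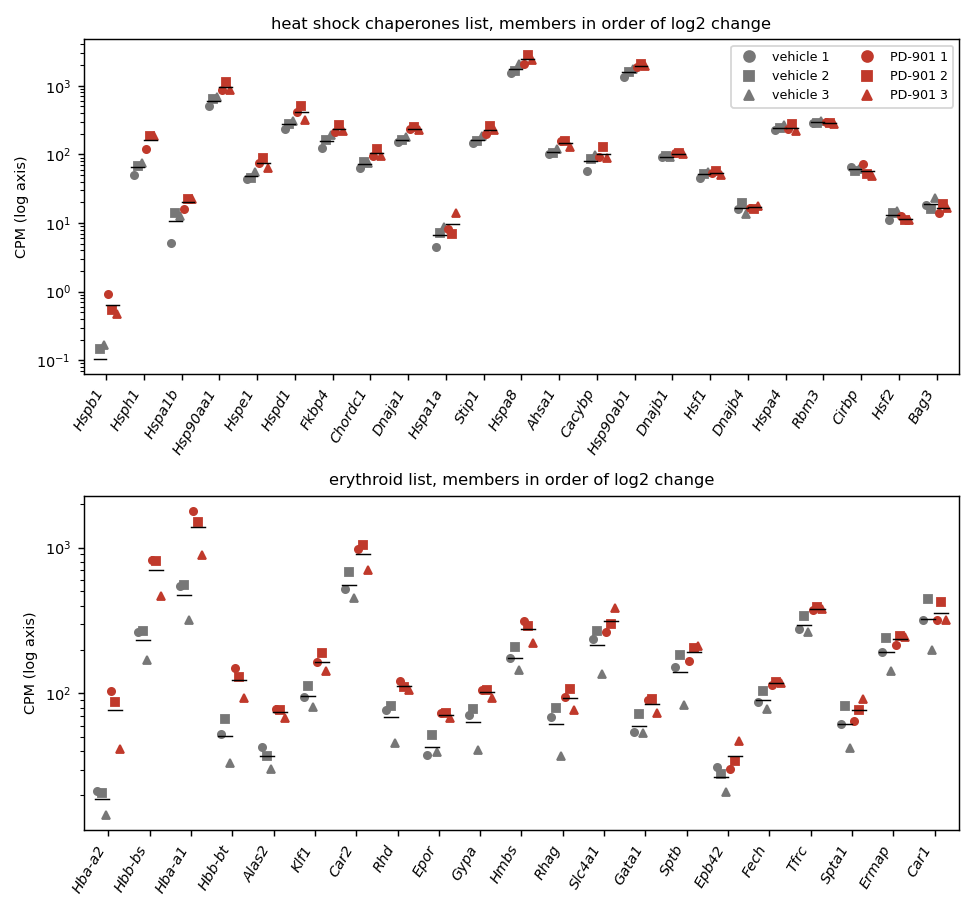
Level of each tested member of the heat shock chaperone list (top) and the erythroid list (bottom) in the 3 vehicle (grey) and 3 PD-901 (red) libraries, in CPM on log axes, ordered by log2 change. Black bars are group means, and the value of 0 for Hspb1 in vehicle 1 cannot be drawn on a log axis. In the lower panel all 21 PD-901 means lie above the vehicle means.

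B lineage transcripts lay higher too. Fcmr, the Fc receptor for IgM, was at 10.4, 9.17 and 8.27 CPM with vehicle and at 29.4, 30.9 and 15.8 CPM with PD-901 (1.45, interval 0.74 to 2.15). DESeq2 gave it an adjusted p of 0.0362. Ms4a1, which encodes CD20, was at 9.73, 12.7 and 10.3 CPM with vehicle and at 26.6, 27.9 and 23.3 CPM with PD-901 (1.25, interval 0.40 to 2.09). Ighd, the heavy chain of IgD carried by mature naive B cells, differed by 1.18 (0.38 to 1.97). Cr2, the complement receptor CD21, was at 0.506 to 1.43 CPM with vehicle and at 2.37 to 6.28 CPM with PD-901 (2.17, interval 0.83 to 3.52). In each of these 4 genes the groups did not overlap, and PD-901 mouse 3 was the lowest of its group.

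Of all genes, 2.71% were higher at an unadjusted p under 0.05 and 6.83% had no overlap upward. All 16 mature B cell markers lay above 0 (median 0.49), 7 were higher and 0 lower at that level, and 8 had no overlap upward. Without PD-901 mouse 2 there were 4 higher, where 1.22% of all genes were. With vehicle mice 1 and 2 both left out the median was 0.65. The summed level of the 16 was 662, 560 and 527 CPM with vehicle and 846, 796 and 629 CPM with PD-901. These sums overlapped, with PD-901 mouse 3 below vehicle mouse 1. Among 15 precursor markers 14 lay above 0 (median 0.46), with 1 higher at that level, a count that was 0 to 2 when 1 library was left out, and 6 had no overlap upward. The markers of plasma cells, T cells and NK cells had medians of 0.04, 0.16 and 0.07, with 0 members past that level in either direction.

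Monocyte markers other than Lyz2 lay below vehicle. Fn1, fibronectin, a matrix protein that monocytes also express, was at 984, 985 and 1070 CPM with vehicle and at 573, 442 and 618 CPM with PD-901 (-0.90, interval -1.39 to -0.40). The vehicle mice lay within a narrow band and every PD-901 mouse lay well below it. Ccr2, the receptor by which monocytes leave the marrow, was at 445, 456 and 689.5 CPM with vehicle and at 367, 296 and 318 CPM with PD-901 (-0.70, interval -1.35 to -0.04). Cd14, the lipopolysaccharide coreceptor, was at 50.1, 42.9 and 46 CPM with vehicle and at 39.4, 24.9 and 15.9 CPM with PD-901 (-0.79, interval -1.52 to -0.06). Csf1r, the M-CSF receptor, differed by -0.51 (-1.07 to 0.05), also with no overlap. Ly6c2, which marks classical monocytes, differed by -0.27 (-0.66 to 0.13).

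Of the 13 monocyte markers tested, 1 (Lyz2) lay above 0 and the median was -0.51. At an unadjusted p under 0.05, 3 were lower and 0 higher, where 2.17% of all genes were lower, and 7 had no overlap downward, where 5.93% of all genes did. The count of 3 depended on single libraries. It was 1 without vehicle mouse 3 and 1 without PD-901 mouse 2, where 2.04 and 1.13% of all genes were lower. It was 5 without vehicle mouse 2, combination mouse 2 or combination mouse 3, where 1.73, 2.52 and 2.16% were. Without 5-azacitidine mouse 2 it was 6, where 2.21% were. The median was -0.26 without vehicle mouse 3. The summed level was 4308, 4356 and 8573 CPM with vehicle and 7456, 3526 and 5917 CPM with PD-901, and the groups overlapped. Lyz2 alone made up 172, 147 and 3228 CPM with vehicle and 4182, 699.6 and 2566 CPM with PD-901. The overlap of the sum therefore does not stand for the other 12 markers, all of which lay below 0.

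Dendritic cell markers lay lower, with 1 of 12 above 0 and a median of -0.49. At an unadjusted p under 0.05, 2 were lower and 0 higher, where 2.17% of all genes were lower. The count of 2 was 5 without vehicle mouse 1 and 0 without vehicle mouse 3, where 2.06 and 2.04% of all genes were lower. It was 1 without vehicle mouse 2, PD-901 mouse 1 or PD-901 mouse 2, where 1.73, 1.59 and 1.13% were. MHC class II genes had a median of -0.50 that rested on vehicle mouse 3. H2-Ab1 was at 154, 237 and 723 CPM with vehicle and at 264, 255 and 158 CPM with PD-901 (-0.72, interval -2.07 to 0.63), and without vehicle mouse 3 the median of the 10 genes was 0.15. Type I interferon response genes had 4 of 30 above 0 and a median of -0.27, with 3 lower at that level. Mx1, an antiviral GTPase, was at 29.4, 33 and 60.4 CPM with vehicle and at 17, 14 and 21.8 CPM with PD-901 (-1.22, interval -2.20 to -0.23). Without vehicle mouse 3 the interferon median was -0.05 and 0 members were lower at that level, where 2.04% of all genes were. Without PD-901 mouse 2 there was 1, where 1.13% were. Without vehicle mouse 1 or PD-901 mouse 3 there were 5, where 2.06 and 2.78% were.

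Neutrophil genes, among the most abundant transcripts of these marrows, had medians near 0 that moved with single libraries. Ltf, lactoferrin of secondary granules, was at 13533, 9396 and 6211 CPM with vehicle and at 12356, 9023 and 8111 CPM with PD-901 (0.02, interval -0.53 to 0.57). Elane, the elastase of primary granules, differed by 0.20 (-0.23 to 0.64), and S100a8, of mature cells, by 0.16 (-0.34 to 0.67). The 3 neutrophil lists had medians of 0.14 for primary granules, -0.01 for secondary granules and 0.21 for mature cells, with 0 members past an unadjusted p of 0.05. Without vehicle mouse 1 the secondary granule and mature medians were 0.27 and 0.43, with 1 member higher in each, and without vehicle mouse 3 they were -0.25 and -0.05. With vehicle mice 1 and 2 both left out they were 0.62 and 0.80, with 6 of 12 and 7 of 13 higher and 1 vehicle library remaining, where 2.74% of all genes were higher.

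Macrophage markers lay on both sides of vehicle. Of the 15, 8 lay above 0 and 7 below, with a median of 0.04 that changed sign in 6 of 24 alternatives. Their summed level was 1130, 1212 and 2326 CPM with vehicle and 1492, 1603 and 1160 CPM with PD-901, with overlap and vehicle mouse 3 the highest. At an unadjusted p under 0.05, 3 were higher and 0 lower, where 2.71% of all genes were higher. Of these 3, Marco, a scavenger receptor, was at 0 CPM in all vehicle libraries and at 0 to 2.62 CPM with PD-901, and Timd4, a receptor for phosphatidylserine, was at 0 to 0.394 and 1.57 to 2.26 CPM. C1qa, C1qb and C1qc, chains of the complement component C1q, were highest in vehicle mouse 3 and differed by -0.30, -0.74 and -0.58. Vcam1, expressed by marrow macrophages and stroma, was at 123, 121 and 108 CPM with vehicle and at 158, 157 and 150.3 CPM with PD-901 (0.40, interval 0.03 to 0.78). Megakaryocyte, stem and progenitor, and basophil, mast cell and eosinophil markers had medians of 0.10, -0.05 and 0.18. Of the basophil, mast cell and eosinophil markers 2 of 15 were higher (Ear6 and Ccr3), and 0 without vehicle mouse 1 or PD-901 mouse 2 or 3. Each of these 3 medians changed sign in 1 or more of the alternatives. Stromal, bone and vessel markers had a median of -0.22 with 2 of 19 lower (Lepr, the leptin receptor, and Lpl, lipoprotein lipase), where 2.17% of all genes were lower. That count was 0 without vehicle mouse 3, PD-901 mouse 2 or combination mouse 1, and the median was -0.39 without PD-901 mouse 3.

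**Figure D4:**
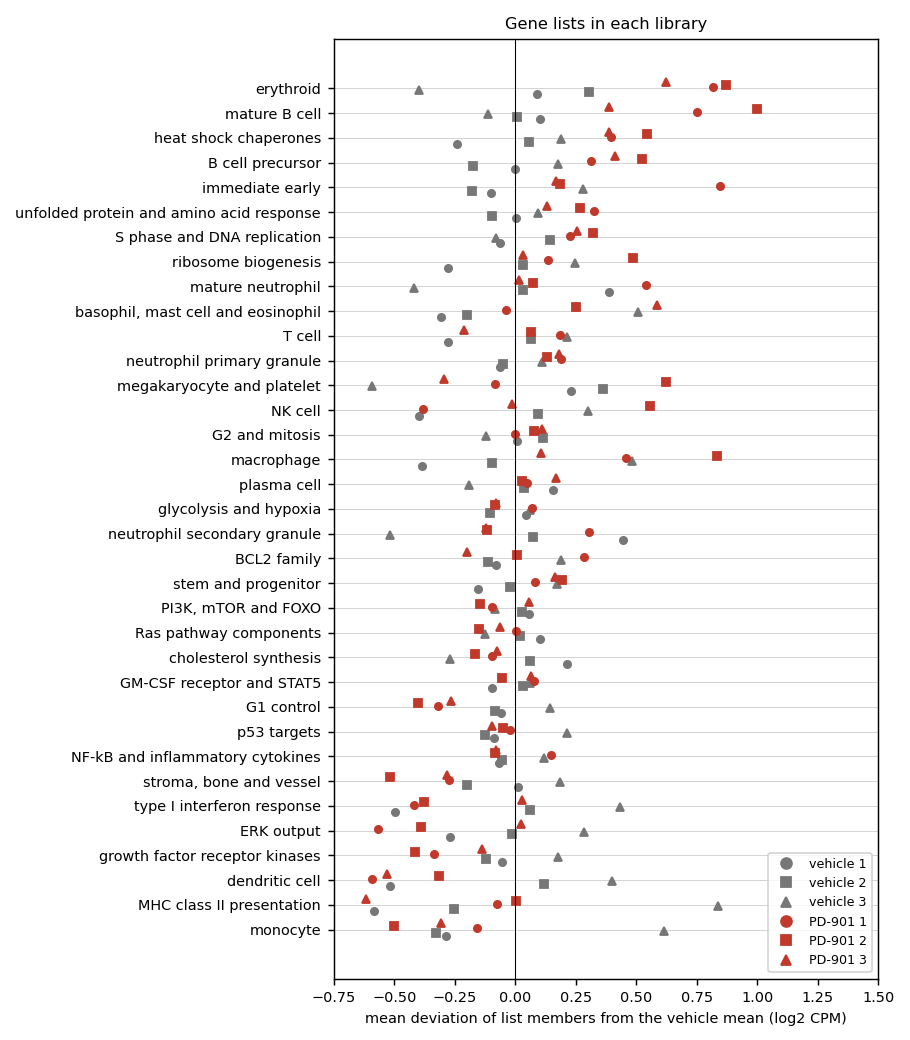
Mean deviation of each gene list from its vehicle mean (log2 CPM) in each vehicle (grey) and PD-901 (red) library, lists ordered by median log2 change. All PD-901 libraries lie to the right of all vehicle libraries for the erythroid, mature B cell, heat shock, B cell precursor, S phase, unfolded protein and neutrophil primary granule lists. They lie to the left for the G1 control, growth factor receptor kinase and stromal lists, and vehicle 3 lies far to the right in the monocyte and MHC class II lists.

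Genes of DNA replication lay slightly above vehicle together. Ccne1, cyclin E1, which starts S phase, was at 46.7, 65.8 and 49.6 CPM with vehicle and at 96.1, 89.2 and 68.3 CPM with PD-901 (0.64, interval 0.26 to 1.03). Orc1, of the origin recognition complex, differed by 0.56 (0.16 to 0.95). Rrm2, the regulated subunit of ribonucleotide reductase, was at 303, 323 and 248 CPM with vehicle and at 373, 382 and 352 CPM with PD-901 (0.34, interval 0.05 to 0.63). None of these groups overlapped. Of 35 members 34 lay above 0, with a median of 0.25. At an unadjusted p under 0.05, 8 were higher and 0 lower, where 2.71% of all genes were higher. Of the 35, 19 had no overlap upward, where 6.83% of all genes did. The count of 8 was 5, 14 and 4 without vehicle mouse 1, 2 and 3, where 1.79, 2.86 and 4.44% of all genes were higher. It was 3 without PD-901 mouse 2, where 1.22% were.

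Genes of G2 and mitosis had a median of 0.05, and Mki67, the proliferation marker, differed by 0.08 (-0.36 to 0.51). Of the G1 genes, Cdkn2b and Cdkn2a, inhibitors of CDK4 and CDK6, were scarce. Cdkn2b was at 3.24, 1.28 and 0.337 CPM with vehicle and at 0.556, 0.122 and 0.0728 CPM with PD-901, with overlap. Cdkn1a, which encodes p21, differed by -0.32 (-0.77 to 0.14). Ribosome biogenesis genes had 24 of 25 above 0 and a median of 0.22. At an unadjusted p under 0.05, 1 was higher (Nhp2), where 2.71% of all genes were, and none was without overlap. Single libraries moved both values. There were 9 higher without vehicle mouse 3 and 9 without PD-901 mouse 3, where 4.44 and 3.77% of all genes were. There were 0 without vehicle mouse 1 or 2 or PD-901 mouse 1 or 2, where 1.22 to 2.86% were. The median was 0.09 with 18 above 0 without vehicle mouse 1, and 0.08 with 17 above 0 without PD-901 mouse 2. The BCL2 family, p53 targets and glycolysis had medians of -0.04, -0.15 and 0.01, with 0 members past that level in either direction. Dnmt1, the maintenance DNA methyltransferase, differed by 0.02 (-0.38 to 0.41).

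Outside the lists, the genes named for the lowest p among those with no overlap had several roles. Cttnbp2nl, which encodes a component of the STRIPAK phosphatase complex (mm10 chr3:105001915-105053146), was at 7.2, 6.9 and 9.11 CPM with vehicle and at 2.94, 2.56 and 2.11 CPM with PD-901 (-1.61, interval -2.22 to -1.0). Its adjusted p was 0.382 by edgeR and 5.55e-05 by DESeq2. P2rx7, the ATP-gated channel that triggers the inflammasome (chr5:122643911-122691432), was at 33.3, 38.3 and 37.2 CPM with vehicle and at 14.3, 15.3 and 19.4 CPM with PD-901 (-1.15, interval -1.71 to -0.59). Sh3pxd2b, the podosome scaffold TKS4 (chr11:32347820-32428173), was at 19.2, 23.9 and 27.4 CPM with vehicle and at 7.02, 10.7 and 12.4 CPM with PD-901 (-1.22, interval -1.81 to -0.64). Every PD-901 value of these 3 genes was far below every vehicle value. DESeq2 gave P2rx7 and Sh3pxd2b an adjusted p of 0.0362 each.

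Hoxb4, a homeobox factor of haematopoietic stem cells, was at 17.5, 15.9 and 16 CPM with vehicle and at 10.2, 9.03 and 8.59 CPM with PD-901 (-0.82, interval -1.28 to -0.37). Wdr37, Mospd2, Sowahc, Rab11fip5 and Tent5a were also among the lower genes, with changes of -0.52 to -0.72. DESeq2 gave Wdr37 an adjusted p of 0.0150. Among the higher genes, Poli, a translesion DNA polymerase, was at 12.4, 15.1 and 13.6 CPM with vehicle and at 20.2, 24.3 and 24.3 CPM with PD-901 (0.74, interval 0.38 to 1.10), and its adjusted p by DESeq2 was 0.0372. Ryk, a receptor for WNT ligands, differed by 1.11 (0.49 to 1.74). Apol8 and Apol11b, apolipoprotein L genes, differed by 1.13 and 2.91, and Hist1h4i, a replication-dependent histone H4, by 0.86.

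**Figure D5:**
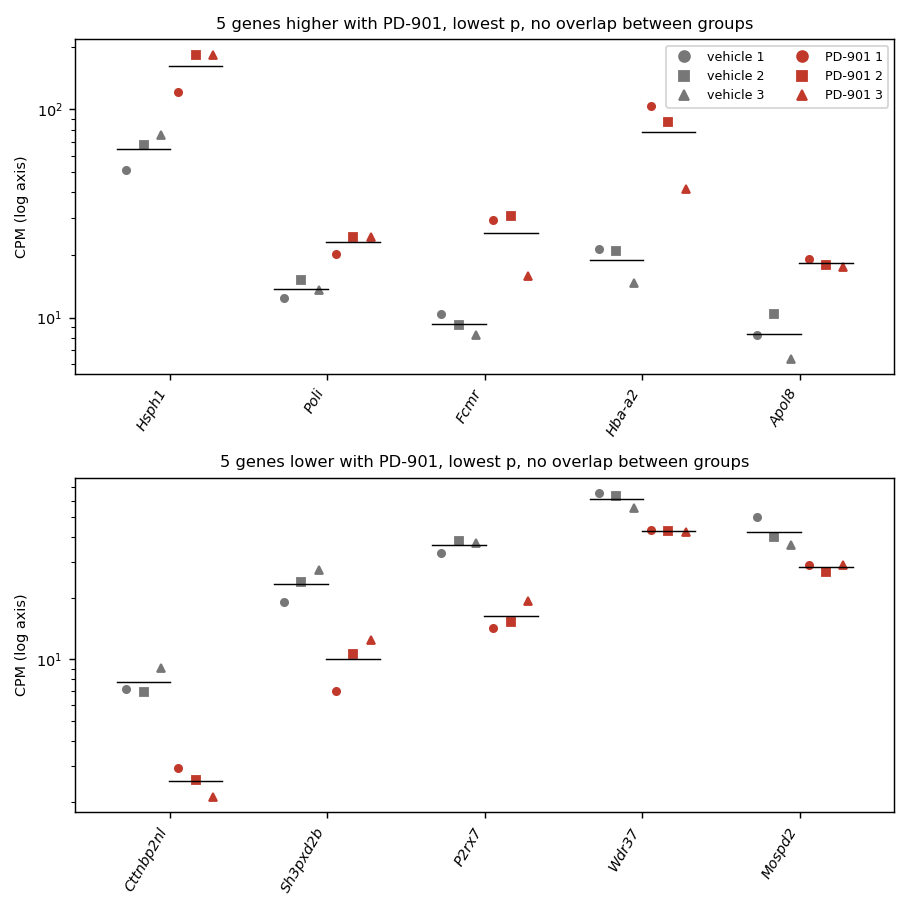
Level in each vehicle (grey) and PD-901 (red) library of the 5 higher (top) and 5 lower (bottom) genes with the lowest p among those with no overlap whose higher group averaged 5 CPM or more, in CPM on log axes. Black bars are group means. These genes were chosen for having no overlap, and Hsph1 and Cttnbp2nl are the first of each panel.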

How the data were processed

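Bone marrow RNA of 12 mice, 1 library each, was sequenced. The authors deposited raw read counts per gene, made with bcl2fastq, STAR 2.7.2a and featureCounts (Subread 1.6.5) on mm10, per the submitters' processing notes. No source used here gives the strand setting or annotation release. The counts were tested with edgeR 4.0.16 (R 4.3.3): genes kept by filterByExpr (minimum count 10, minimum total 15), TMM scaling, and a robust quasi-likelihood fit of 4 group means to all 12 libraries (8 residual degrees of freedom). Tests were two-sided, with Benjamini-Hochberg adjustment over all genes and a threshold of 0.05. CPM is scaled by TMM, except for Xist and Y-linked genes. The smallest library, at 16335382 counts among the 6 compared, limits precision for scarce genes.

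Alternatives, 24 in all, were other scalings and filters, DESeq2 1.42.0, limma-voom (limma 3.58.1), covariates and leaving out libraries. The edgeR script was tested on simulated data. The comparison and the 35 gene lists were chosen with earlier results of these data known. Named genes are the 10 higher and 10 lower with the lowest p, no overlap between groups and an average of 5 CPM or more in the higher of them (sex-linked genes, receptor segments, unnamed models, ribosomal protein pseudogenes and mitochondrial genes left out), fixed core genes, and up to 4 members per list with the lowest p. Symbols annotated more than once were represented by the identifier with the most counts. Jund, Egr2, Hspa4l, Kif11, Trem1, Treml1 and Treml4 are annotated more than once and hold 0 to 9 counts a library, so they are taken as not measured. Hrk, Cxcl1, Gp1bb and Sp7 had too few counts to test, and Ahsp was not matched. Some genes that the rule for named genes picked are not reported here.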

Additional observations from a re-analysis of the deposited data

How the results depend on the processing

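The number of genes past the threshold depended on the tool and the filter. Without a filter on low counts edgeR called 32 genes higher and 21 lower, DESeq2 called 4 and 5, and limma-voom called 1 higher. Leaving out 1 library at a time gave 0 to 1 higher and 0 lower, and the 1 was Hsph1. Without both vehicle libraries low in Lyz2, an alternative chosen after seeing the data as were the 2 with a Y-linked or an Xist covariate added later, 1 gene was lower (Ighv1-4). Named genes past the test of the difference between the PD-901 effect with and without 5-azacitidine numbered 0 in the report, 43 without a filter, 48 with DESeq2, 2 with limma-voom, and 0 to 29 when 1 library was left out, the highest without 5-azacitidine mouse 1. The cause of these differences was not tested. The medians of the ERK output (-0.48 to -0.12), immediate early (0.20 to 0.66), heat shock (0.28 to 0.57), S phase (0.22 to 0.33), erythroid (0.44 to 1.03), mature B cell (0.37 to 0.76), B cell precursor (0.22 to 0.63) and monocyte (-0.83 to -0.26) lists kept their sign in all 24 alternatives. Of all 35 list medians, 17 kept their sign and 18 changed it in 1 or more: glycolysis in 10, secondary granule in 7, macrophage and stem and progenitor in 6 each, NK cell in 4, mature neutrophil, basophil and BCL2 family in 3 each, plasma cell, T cell and megakaryocyte in 2 each, and MHC class II, ribosome biogenesis, G2 and mitosis, G1 control, Ras pathway and PI3K in 1 each, among others. Dusp6 lay between -0.26 and 0.13 and changed sign in 6. No paired analysis was possible because the labels number the 12 samples in 1 series and no number is shared between groups. With 3 mice a side and a median standard error of 0.28, differences smaller than the printed intervals allow were not detectable.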
